A study of Mus musculus with 18 samples.

Results

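Glycolysis and the response to low oxygen were followed through 33 genes, picked by name from the 34162 genes of the deposited table for what they encode. Earlier results of these data were known when the genes were chosen. They are 2 glucose transporters, 8 genes of upper glycolysis, 6 of lower glycolysis, 4 that interconvert or carry lactate, 3 that set the direction of flux, 3 of oxygen sensing and 7 other targets of hypoxia-inducible factor (HIF). Of these 33 genes, 33 passed the filter on low counts, which left 14876 genes for testing.

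Glycolysis splits glucose into pyruvate in the cytosol. Activated T cells run it fast and turn much of the pyruvate into lactate even with oxygen at hand, a state driven in large part by mTORC1 and Myc signalling. HIF-1α, the protein of Hif1a, is hydroxylated and destroyed where oxygen is plentiful, and where it persists it binds the letters ACGTG or GCGTG beside genes of glucose uptake, glycolysis, lactate export and mitochondrial turnover.

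Each library holds messenger RNA of roughly 500 CD4+ effector T cells, sorted 3 weeks after T cells were given to Rag-deficient mice, hosts without lymphocytes of their own making. The donor cells were CAR-deficient (C57BL/6 Nr1i3-/-) or wild type (C57BL/6 CD45.1+). CAR is the constitutive androstane receptor, a nuclear receptor that senses foreign compounds, and Nr1i3 is its gene. CD45.1, a congenic form of the leukocyte antigen CD45, was carried by the wild type cells alone, so effects of CAR and of the linked congenic difference cannot be told apart. Both genotypes were taken from the small intestine lamina propria (siLP), the colon lamina propria (cLP) and the spleen, with 3 libraries in each of the 6 groups and 18 in all. The labels do not tie the 3 libraries of a group to different hosts, so a p-value here reflects the spread among libraries, some or all of which may be technical. In bulk RNA, fewer cells that express a gene and less RNA per cell cannot be told apart.

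Total estimated counts ran from 19605135 to 25436389 per library, and 3 counts, the smallest level read as present, from 0.108 to 0.185 CPM (counts scaled to library size). The libraries of a group are called a, b and c after the endings of their columns. The 6 a libraries stood apart, with 15466 to 16128 genes detected and 3.70% to 3.98% mitochondrial counts, against 17013 to 18819 genes and 2.23% to 3.22% in the other 12, and each group holds 1 of them. Nr1i3 checked the labels poorly: the siLP library a labelled CAR-deficient held 196 counts of it, the most of the 18. Libraries a, b and c labelled CAR-deficient held 196, 0 and 0 counts in siLP, 0, 29 and 1 in cLP, and 0, 14 and 14 in spleen. Wild type libraries held 0, 5 and 0 counts in siLP, 0, 0 and 10 in cLP, and 36, 0 and 7 in spleen. Nr1i3 was thus not lower in the libraries labelled CAR-deficient and did not set the genotypes apart. The 6 CD4 T cell markers summed to between 4792 and 12574 CPM in every library.

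The called differences among these genes lay between organs. Hk2, the inducible hexokinase that commits glucose to the cell, rose 4.16-fold in siLP and 5.71-fold in cLP over spleen, in counts that make no allowance for the length of the isoforms. The siLP call ended under several alternatives given with the Hk2 values. Slc16a1, which encodes the lactate and pyruvate carrier MCT1, rose 2.67-fold in cLP, and Mxi1, a HIF target whose protein opposes Myc, rose 3.49-fold there. Both calls lay close to the threshold. Each was kept in only 4 of 18 fits that left out 1 library, and each ended without the 6 a libraries. Mxi1 in the cLP libraries c lay within the spleen range. By contrast the abundant enzymes from phosphofructokinase to lactate dehydrogenase were not called by edgeR in any organ comparison, and none of the 33 genes was called between the genotypes.

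The promoters of Hk2 and Slc16a1 are shown because these are the called genes in which HIF core letters were found. Each runs from 250 bases before to 50 bases after the gene's start on its own strand, from RefSeq (GRCm38.p6), with the core in capitals. The core was searched as ACGTG and GCGTG on both strands, so that CACGT and CACGC are the same letters on the other strand, and CACGTG, the E-box that Myc family proteins also bind, counts on both.
Hk2 promoter, chr6:82774405-82774704, minus strand: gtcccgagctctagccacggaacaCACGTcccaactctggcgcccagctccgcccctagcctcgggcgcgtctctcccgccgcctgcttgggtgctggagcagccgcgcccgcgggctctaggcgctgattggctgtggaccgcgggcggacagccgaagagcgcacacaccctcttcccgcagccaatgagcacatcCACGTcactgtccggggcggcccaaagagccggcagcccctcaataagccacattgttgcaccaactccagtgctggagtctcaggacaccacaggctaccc
Slc16a1 promoter, chr3:104638414-104638713, plus strand: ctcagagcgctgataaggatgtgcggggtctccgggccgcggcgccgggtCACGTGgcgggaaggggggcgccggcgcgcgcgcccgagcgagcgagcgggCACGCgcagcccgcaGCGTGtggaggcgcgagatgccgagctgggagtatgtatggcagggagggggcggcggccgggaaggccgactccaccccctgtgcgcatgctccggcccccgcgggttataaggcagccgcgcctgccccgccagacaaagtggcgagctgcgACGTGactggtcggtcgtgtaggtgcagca
The Hk2 promoter holds 2 matches and that of Slc16a1 holds 5, of which the E-box accounts for the overlapping pair. Of the 33 genes, 31 had an entry, and the core stood in 24 of these 31 promoters (77.4%), against 14380 of 32851 promoters of the same length (43.8%). CACGTG stood in 5 of the 31 (16.1%), against 7.15% of the promoters in the table. The genes were listed for glycolysis or as HIF targets, so a higher share of HIF letters is partly a result of that choice. The background also takes every promoter of a gene, expressed or not, against the nearest to the start for each listed gene. Whether HIF acts on these genes was not tested. The promoter of Mxi1 held no match in this window.

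**Figure D1:**
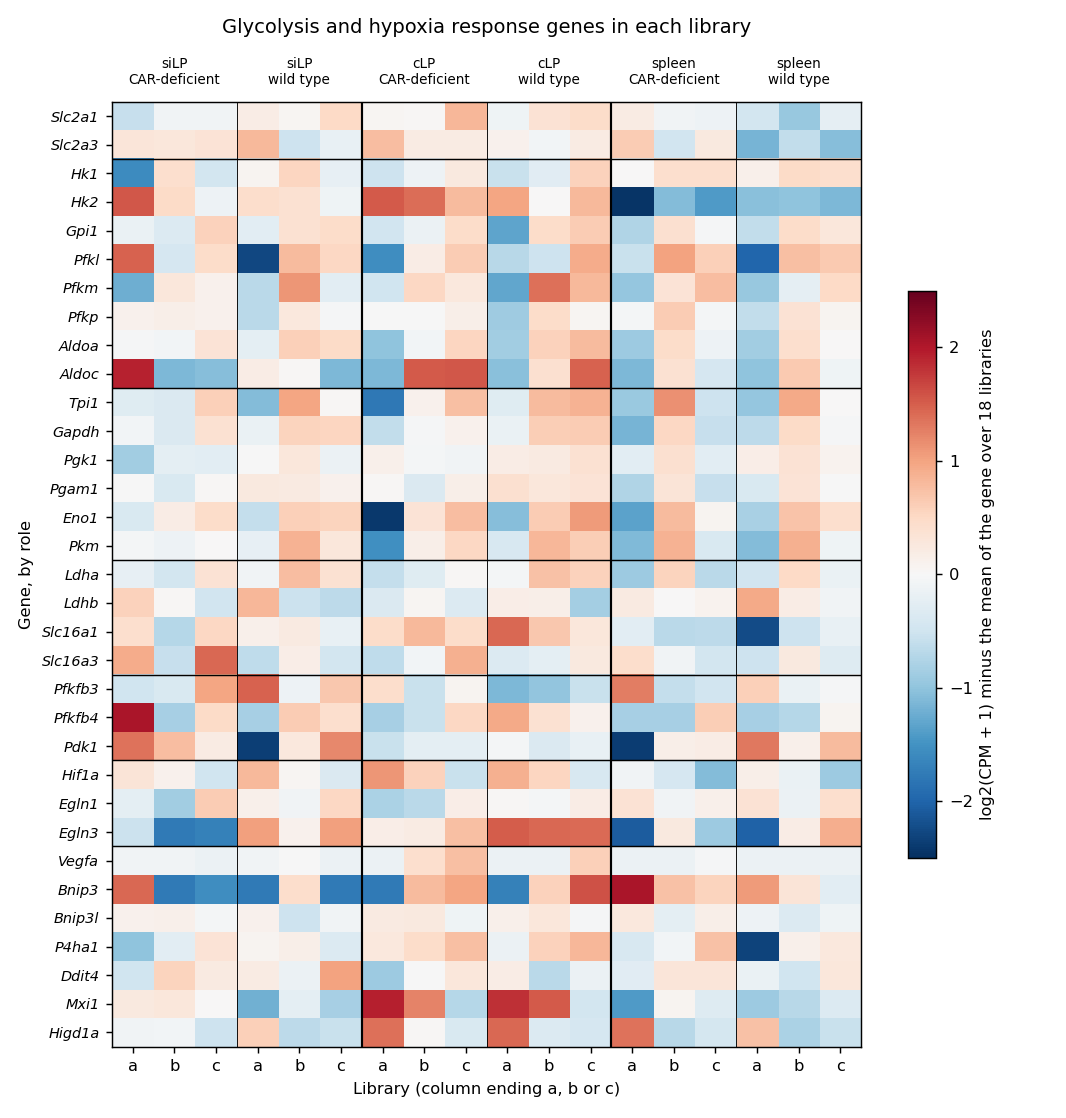
Level of each of the 33 genes in each of the 18 libraries, as log2(CPM + 1) minus the gene's mean over the libraries, with genes in rows by role and libraries in columns by organ and genotype. Hk2 is above its mean in most gut libraries, near it in cLP wild type library b and slightly below it in siLP library c of both genotypes. In the 6 spleen libraries Hk2 is further below its mean. Eno1, Pkm and Tpi1 are palest or bluest in libraries a rather than in any organ.

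Set against the whole table, the siLP to spleen comparison called 1 of the 33 genes, where 0.847% of the 14876 tested genes were called in either direction (120 higher and 6 lower). The cLP to spleen comparison called 3 of 33, against a background of 3.07% (404 higher and 52 lower). The median log2 fold change of the 33 genes was 0.17 in siLP over spleen, with 23 above 0 and 10 below, and 0.21 in cLP over spleen, with 24 above and 9 below. Over all genes tested, 49.2% and 50.2% lay above 0 in these comparisons. Between siLP and cLP no gene of the table was called by edgeR, and 2 of the 33 had an unadjusted p under 0.05, against 8.34% of all genes tested. DESeq2 called 36 genes higher and 178 lower in siLP than in cLP (1.45% of those it tested), 1 of the 33 among them.

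Among the genes of glucose uptake, GLUT3 (Slc2a3) was the more abundant transporter in most libraries, with 45.4% to 74.2% (median 63.2%) of the summed level of Slc2a3 and Slc2a1 per kilobase. Levels of different genes are compared as CPM per kilobase of annotated exon, which weighs all annotated isoforms alike. Slc2a3 had 46.5, 46.2 and 47.8 CPM in siLP CAR-deficient and 67.0, 26.1 and 33.2 in siLP wild type libraries a, b and c. It had 65.4, 43.4 and 43.7 CPM in cLP CAR-deficient libraries and 40.6, 35.9 and 44.0 in cLP wild type ones. In spleen it had 59.0, 26.7 and 44.9 CPM in CAR-deficient and 16.2, 24.4 and 17.7 in wild type cells. The wild type spleen libraries were thus the lowest group, and the CAR-deficient spleen libraries lay within the range of the gut. The log2 difference was 0.61 ± 0.26 (SE) in siLP and 0.64 ± 0.26 in cLP over spleen, with edgeR adjusted p of 0.454 and 0.237. Slc2a1, the transporter GLUT1, lay between 5.85 and 22.5 CPM and gave 0.28 ± 0.29 in siLP and 0.61 ± 0.29 in cLP over spleen (edgeR adjusted p = 0.842 and 0.340).

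Hk1 and Hk2 encode the hexokinases that trap glucose as glucose 6-phosphate, Hk1 being the constitutive one. Hk2 (ENSMUSG00000000628, chr6:82725025-82774454, minus strand of GRCm38) had 37.0, 17.2 and 11.0 CPM in siLP CAR-deficient libraries a, b and c and 16.6, 16 and 11.1 in siLP wild type ones. In cLP it had 36.7, 33.3 and 21.5 CPM in CAR-deficient and 24.7, 12.1 and 21.8 in wild type cells. The spleen libraries held 1.37, 5.17 and 3.85 CPM in CAR-deficient and 5.30, 5.52 and 4.97 in wild type cells. In CPM, each of the 12 gut libraries lay above each of the 6 spleen libraries. CPM make no allowance for which isoforms a library holds, and in the deposited values per transcript length, which are left out of the results here, siLP and spleen overlapped. The log2 fold change was 2.06 ± 0.38 in siLP (edgeR adjusted p = 0.0131) and 2.51 ± 0.39 in cLP (adjusted p = 0.00184) over spleen, with the genotypes averaged. Taken by genotype, Hk2 was called in cLP over spleen of CAR-deficient cells (3.13 ± 0.57, edgeR adjusted p = 0.0209, with 0.484% of the table called) and missed the threshold in the other 3 comparisons. Hk2 gave 2.65 in siLP CAR-deficient cells (edgeR adjusted p = 0.0720), where 0.215% of the table was called. It gave 1.47 in siLP wild type cells (adjusted p = 0.967, 0.188% of the table called) and 1.89 in cLP wild type cells (adjusted p = 0.252, 0.376% of the table called). The test of the difference between genotypes gave 1.18 ± 0.74 for siLP and 1.24 ± 0.74 for cLP (edgeR adjusted p = 1.00 each), with 0% of the table called in either.

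The Hk2 call in cLP was kept in each of the 18 fits that left out 1 library (2.34 to 2.71, edgeR adjusted p 0.00116 to 0.0108). The siLP call ended without the 6 a libraries (1.51, adjusted p = 0.0620) and without spleen wild type c (2.03, adjusted p = 0.0557). The calls in siLP and in cLP CAR-deficient cells over spleen were also not kept in an exploratory fit with the deposited transcript lengths as an offset, whose values are left out of the results here. The call in cLP CAR-deficient cells ended without CAR-deficient spleen a (2.78, adjusted p = 0.0958), b (3.53, 0.0513) or c (3.21, 0.119), or CAR-deficient cLP a (2.98, 0.0525) or b (3.10, 0.0770). Without the siLP library a labelled CAR-deficient, Hk2 in siLP over spleen was 1.75 (edgeR adjusted p = 0.0413).

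Hk1 differed in the other direction from Hk2 without passing the test (-0.42 ± 0.34 in siLP and -0.39 ± 0.34 in cLP over spleen, edgeR adjusted p = 0.773 and 0.695). As a share of the summed level of both hexokinases per kilobase, Hk2 made up 42.9% to 89.4% in siLP (median 49.2%), 49.9% to 78.7% in cLP (median 63.4%) and 8.62% to 25.0% in spleen (median 20.6%), with n = 6 libraries each. The shares of each gut site lay above those of spleen without overlap, and this is the same Hk2 difference seen within a library, not a separate one.

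**Figure D2:**
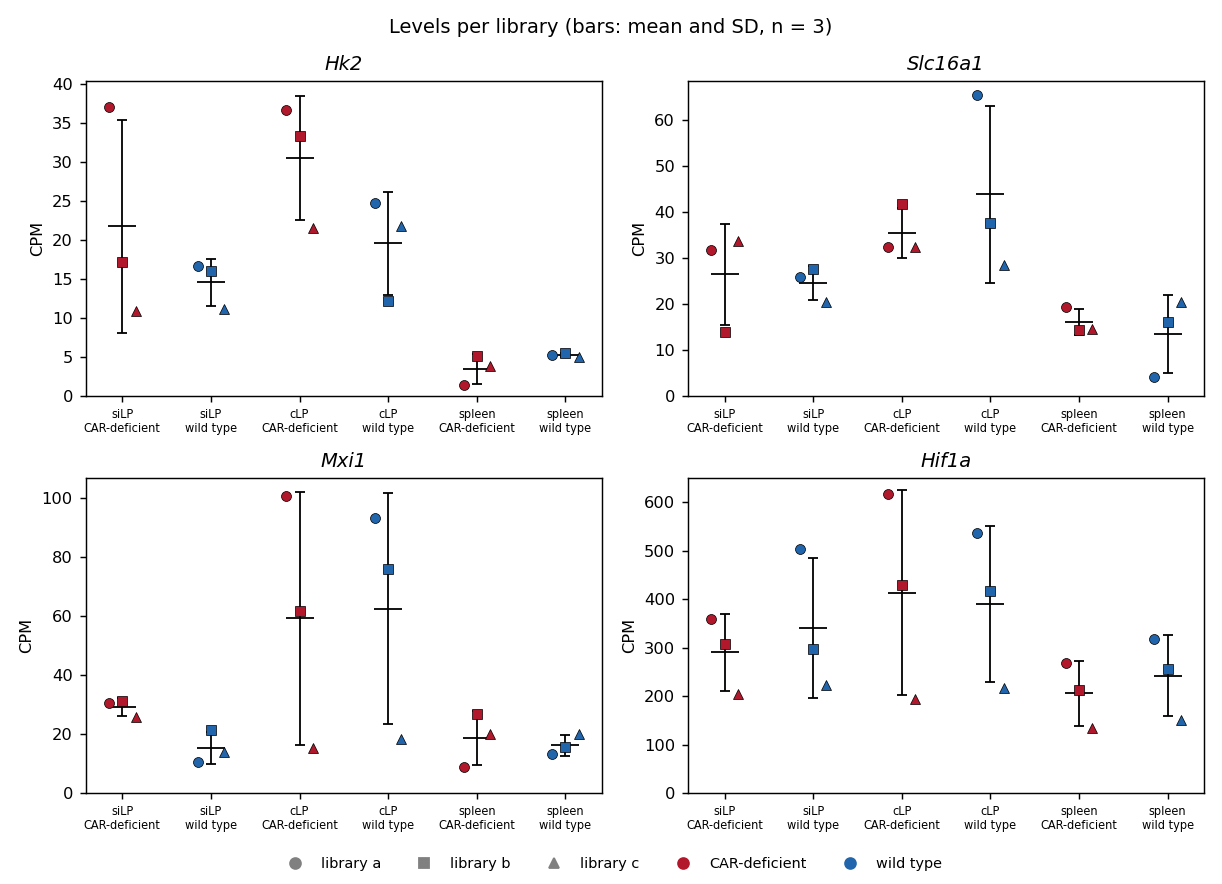
Levels of Hk2, Slc16a1, Mxi1 and Hif1a in CPM per library, in 6 groups by organ and genotype, with the mean and SD of n = 3 as bars, colour for genotype and marker shape for library a, b or c. Hk2 stays at or below 5.52 CPM in spleen and at or above 11.0 in the gut, Mxi1 is highest in libraries a and b of cLP, and Hif1a is highest in library a and lowest in library c in the 6 groups.

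The next steps of upper glycolysis showed no organ difference called by edgeR. Gpi1, which turns glucose 6-phosphate into fructose 6-phosphate, lay between 65.6 and 257 CPM and gave 0.12 ± 0.33 in siLP and 0.04 ± 0.33 in cLP over spleen. Of the phosphofructokinases, Pfkp (platelet type) held 78.7% to 98.1% of the summed level per kilobase of Pfkp and Pfkl (liver type). Pfkp had between 102 and 294 CPM, and its log2 differences of -0.09 ± 0.24 and -0.10 ± 0.24 were among the narrowest of the 33 genes. Pfkm (muscle type) reached at most 5.34 CPM. It was listed with 758 counts over all libraries and overlaps Senp1, a gene on the other strand with 12570, and reads of the shared stretch cannot be told apart without strand. Aldoa, the aldolase of most tissues, held at least 98.0% of the summed level per kilobase of Aldoa and Aldoc, and Aldoc reached at most 7.31 CPM.

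Lower glycolysis, which returns ATP and ends in pyruvate, held several of the most abundant of these genes. By median CPM per kilobase over the 18 libraries, Ldha stood first at 170, followed by Eno1 (enolase) at 169, Gapdh at 163, Pgk1 at 112, Aldoa at 111 and Bnip3l at 67.6. The 6 enzyme genes Tpi1, Gapdh, Pgk1, Pgam1, Eno1 and Pkm had log2 differences between -0.29 and 0.30 in siLP and between 0.03 and 0.27 in cLP over spleen, and 0 of 6 were called by edgeR in either. Of these 6, 0 had an unadjusted p under 0.05 in either comparison. Eno1 had the widest spread among libraries, from 130 to 1448 CPM, with library a the lowest of its group in 6 of 6 groups. In cLP CAR-deficient cells, for example, it had 130, 885 and 1186 CPM in a, b and c, against 332, 1084 and 1448 in cLP wild type cells.

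Gapdh counts need a separate reading. The mouse genome holds processed copies of Gapdh, and 86 near-identical ones in the table took 41.9% to 58.6% (median 52.7%) of the summed counts of Gapdh and copies. The main one, Gm7336 (ENSMUSG00000078636, chr7:51746647-51747878, plus strand), was listed at 204 to 1349 CPM. Of its 1232 bases, 1198 aligned locally to a Gapdh transcript of 1273 bases, and 1198 of these were identical. The search for copies, over the Gapdh transcripts, matched 1229 bases at 99.8% identity. Reads from identical stretches cannot be assigned to either. With the copies added, Gapdh and its copies together had 1274, 1115 and 1913 CPM in siLP CAR-deficient libraries and 1185, 2169 and 2119 in siLP wild type ones, and no call among the 33 genes changed. Bnip3l lost at most a smaller part this way, 10.9% of the sum of it and its copy, and Pgam1 3.20%.

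Lactate dehydrogenase was almost wholly of the A type, with Ldha at 87.8% to 98.3% of the summed level per kilobase of Ldha and Ldhb. Ldha, whose enzyme favours making lactate, did not pass in edgeR in either gut site over spleen (0.26 ± 0.28 and 0.18 ± 0.28). Slc16a1 (ENSMUSG00000032902, chr3:104638668-104658462, plus strand), the proton-linked carrier of lactate and pyruvate, had 32.4, 41.8 and 32.5 CPM in cLP CAR-deficient and 65.5, 37.7 and 28.5 in cLP wild type libraries. Its spleen levels were 19.4, 14.4 and 14.5 CPM in CAR-deficient and 4.19, 16 and 20.5 in wild type libraries. Each cLP library was above each spleen library, and the log2 fold change of cLP over spleen was 1.42 ± 0.36 (edgeR adjusted p = 0.0421). In siLP it had 31.7, 14.0 and 33.8 CPM in CAR-deficient and 25.8, 27.6 and 20.5 in wild type cells, which overlapped spleen and gave 0.79 ± 0.35 (adjusted p = 0.485). The cLP call lay close to the threshold: it was kept in 4 of 18 fits that left out 1 library, those without cLP wild type c or siLP wild type a, CAR-deficient a or b, and the adjusted p reached 0.113. Without the 6 a libraries it was 1.12 (adjusted p = 0.0565). Slc16a3, the MCT4 exporter that HIF induces in many cells, was at or below 3.23 CPM, and Slc16a1 held 92.6% to 100% of the summed level of both carriers per kilobase.

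Of the genes that set flux, Pfkfb3 and Pfkfb4 encode enzymes that make or break down the activator of phosphofructokinase. Pdk1 encodes a kinase that inhibits pyruvate dehydrogenase, the mitochondrial enzyme complex that uses pyruvate. Pfkfb3 had 3.32 to 25.0 CPM and was 1.04 ± 0.47 higher on the log2 scale in siLP than in cLP (edgeR adjusted p = 0.577), with 5.62 to 25.0 CPM in siLP and 3.32 to 11.7 in cLP. Pdk1 kept to 6.04 to 9.0 CPM in the 6 cLP libraries, while it spread from 1.04 to 25.6 in siLP and from 1.00 to 24.8 in spleen. Pfkfb4 was listed at 0 in 6 of 18 libraries and reached 6.25 CPM in 1 of them.

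Hif1a (ENSMUSG00000021109, chr12:73901375-73947530, plus strand), the gene of the oxygen-regulated HIF subunit, was expressed throughout. It had 360, 308 and 204 CPM in siLP CAR-deficient and 503, 298 and 223 in siLP wild type libraries a, b and c. The cLP libraries held 617, 429 and 194 CPM in CAR-deficient and 536, 417 and 217 in wild type cells. Spleen had 269, 214 and 135 CPM in CAR-deficient and 318, 257 and 152 in wild type cells. Library a was the highest and c the lowest of its group in 6 of 6 groups. The organs overlapped, and edgeR did not call Hif1a (0.50 ± 0.32 in siLP, adjusted p = 0.680, and 0.85 ± 0.32 in cLP over spleen, adjusted p = 0.191). The call depended on the fit: voomWithQualityWeights called it in cLP over spleen (0.86, adjusted p = 0.0429), and edgeR with the column ending as a replicate block called it in siLP (0.50, adjusted p = 0.0456) and in cLP (0.79, adjusted p = 0.00122).

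Egln1 and Egln3 encode the prolyl hydroxylases PHD2 and PHD3 that mark HIF-1α, and Egln3 is itself a HIF target. Egln1 held to 15.8 to 46.6 CPM without a called difference. Egln3 (ENSMUSG00000035105, chr12:54178981-54203860, minus strand) was a low gene with 0.253 to 7.64 CPM in siLP, 3.76 to 11.0 in cLP and 0 to 6.95 in spleen, and its difference of 1.47 ± 0.96 in cLP over spleen did not pass (edgeR adjusted p = 0.547).

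Of the other HIF targets, only Mxi1 was called in an organ comparison by edgeR. Mxi1 (ENSMUSG00000025025, chr19:53310518-53375810, plus strand) had 101, 61.9 and 15.2 CPM in cLP CAR-deficient libraries a, b and c and 93.2, 75.9 and 18.5 in cLP wild type ones. In spleen it had 9.01, 26.9 and 20.2 CPM in CAR-deficient and 13.2, 15.5 and 20.1 in wild type cells. The cLP libraries a and b lay above every spleen library and the cLP libraries c within the spleen range. The log2 fold change was 1.80 ± 0.45 (edgeR adjusted p = 0.0401), kept in 4 of 18 fits that left out 1 library: those without cLP CAR-deficient c, cLP wild type c, or siLP a of either genotype. It ended without the 6 a libraries (1.07, adjusted p = 0.275) and with limma's voomWithQualityWeights (1.12, adjusted p = 0.115). In siLP it had 30.6, 31.2 and 25.7 CPM in CAR-deficient and 10.5, 21.4 and 14.1 in wild type cells, 1.52 lower on the log2 scale than in cLP, which edgeR did not call (adjusted p = 0.242) and DESeq2 did (adjusted p = 0.0392).

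Of the other 6 targets, 0 were called by edgeR in siLP or cLP over spleen. Bnip3l, whose protein directs mitochondria to breakdown, kept between 176 and 310 CPM in the 18 libraries, with differences of 0.01 ± 0.15 in siLP and 0.18 ± 0.15 in cLP over spleen. It held at least 93.3% of the summed level per kilobase of Bnip3l and Bnip3, and Bnip3 was listed at 0 in 4 libraries (-1.50 ± 1.51 and -0.38 ± 1.48). Higd1a, a mitochondrial protein induced by hypoxia, had 387 to 699 CPM in a libraries other than siLP CAR-deficient a, which had 241, and 147 to 261 in libraries b and c, with differences of -0.33 ± 0.46 in siLP and 0.35 ± 0.46 in cLP over spleen. P4ha1, a collagen prolyl hydroxylase, had 3.64 to 40.2 CPM (-0.08 ± 0.41 and 0.56 ± 0.41), and Ddit4, an inhibitor of mTORC1, at most 3.23 CPM (0.49 ± 0.67 and -0.32 ± 0.68). Vegfa, the angiogenic factor, was listed at 0 in 10 libraries, had fewer than 3 counts in 14, and reached 0.875 CPM, so no fold is given. Its 3 highest values were in cLP, 0.493 and 0.875 CPM in CAR-deficient b and c and 0.680 in wild type c. Vegfa was not called in cLP over spleen (edgeR unadjusted p = 0.0111, adjusted p = 0.143). It passed the filter on low counts only through these cLP values, so its p gives no support for a difference.

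**Figure D3:**
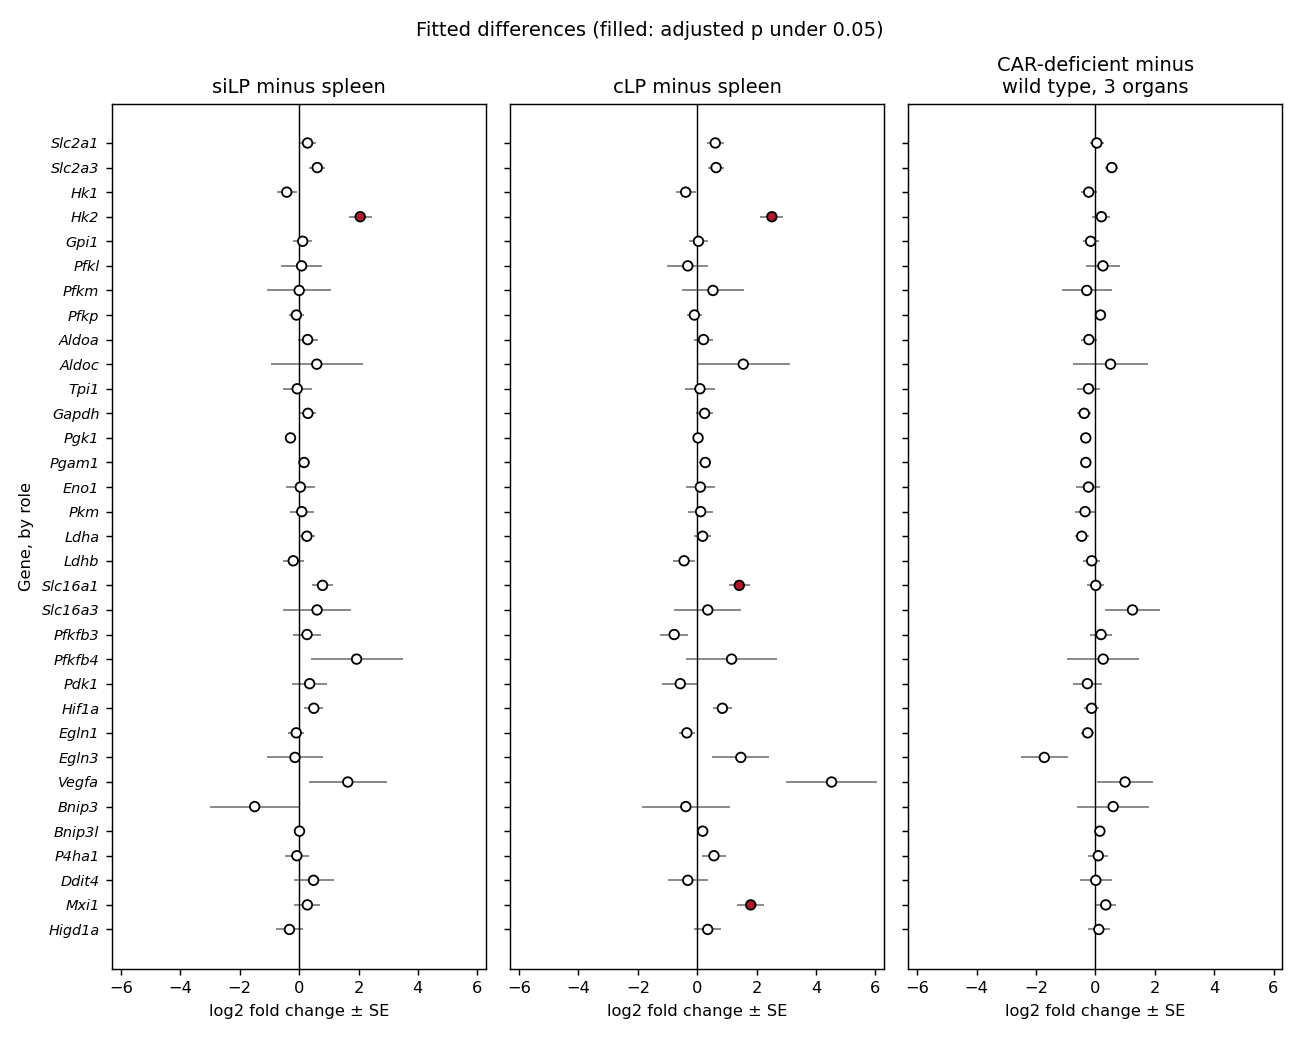
Fitted log2 fold change with its SE for each of the 33 genes in siLP over spleen, cLP over spleen, and CAR-deficient over wild type averaged over the organs, with genes down the page by role. Filled points passed an adjusted p of 0.05 in edgeR: Hk2 in both gut sites at 2.06 and 2.51, and Slc16a1 and Mxi1 in cLP, with no filled point for genotype. Vegfa and Slc16a3, with fewer than 3 counts in 14 and 4 libraries, are drawn, but their points are not to be read as folds.

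Markers of some other cells moved with the organ comparisons. The 7 stromal and endothelial markers, of which 5 rose in cLP over spleen, summed to 69.6 to 392 CPM in siLP, 105 to 1237 in cLP and 48.5 to 82.3 in spleen, with Col3a1 at 0 in spleen. The 13 epithelial markers, of which 10 were tested and 3 rose in cLP, summed to 4.73 to 27.9 CPM in siLP, 23.9 to 279 in cLP and 8.06 to 14.1 in spleen, with Krt20 and Vil1 at 0 in siLP and Fabp1 at 0 in cLP. The 9 myeloid markers ran from 54.7 to 167 CPM in siLP, 20.4 to 92.1 in cLP and 23.3 to 56.2 in spleen. The 8 erythroid and platelet markers, of which 4 fell in each gut site, reached 13.0 CPM in siLP and 18.7 in cLP and held 146 to 2323 in spleen. The part of these cells in the Hk2, Slc16a1 and Mxi1 differences was not tested.

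Other genes around the pathway were counted from lists chosen by role. Of 20 further glycolysis genes 12 were tested, of 13 genes of pyruvate entry 12, and of 7 of the pentose phosphate path 7, and edgeR called 0 of these in siLP or cLP over spleen. Of 23 further HIF pathway genes 20 were tested, and 1 rose in siLP and 3 in cLP. Bhlhe40, a repressor induced by HIF and by T cell activation, had 365 to 954 CPM in siLP, 699 to 821 in cLP and 70.1 to 207 in spleen (2.14 ± 0.24 in siLP, edgeR adjusted p = 0.000204, and 2.45 ± 0.24 in cLP, adjusted p = 3.41e-05). Cited2, a HIF-induced inhibitor of HIF, rose by 1.13 ± 0.24 in cLP (edgeR adjusted p = 0.0173). Adm was called in cLP (edgeR adjusted p = 0.0379) at 0 to 4.54 CPM, against at most 0.0527 in spleen, which is below 3 counts. In siLP it reached 0.270 CPM, so Adm passed the filter on low counts only through cLP, where it was then called. Its place among the 3 is thus no separate support for a rise.

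Of the 14 genes of Myc, mTORC1 and glucose sensing, 2 rose in siLP and the same number in cLP, and in both they were Slc3a2 and Irf4. Slc3a2, the heavy chain of amino acid carriers, had 246 to 445 CPM in siLP, 275 to 553 in cLP and 52.6 to 130 in spleen (1.66 ± 0.25 and 2.01 ± 0.25). Irf4, a factor induced by T cell receptor signals, had 40.3 to 115 CPM in siLP, 45.5 to 128 in cLP and 9.38 to 19.1 in spleen (2.15 ± 0.30 and 2.39 ± 0.30). Of 14 immediate early and heat shock genes, 11 rose in siLP and 10 in cLP, with summed levels of 4851 to 7273 CPM in siLP, 2418 to 6140 in cLP and 584 to 1861 in spleen. Such genes are known to respond to tissue digestion as well as to activation, and their part in the Hk2 difference was not tested. Of 14 cell cycle genes, 0 were called in siLP and 4 fell in cLP over spleen, among them Mki67 (-0.93 ± 0.20, edgeR adjusted p = 0.0197) and Ccnb1 (-2.05 ± 0.50, adjusted p = 0.0354).

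Between the genotypes, 0 of the 33 genes passed in siLP, in cLP, in spleen or averaged over the organs by edgeR, and DESeq2 and limma's voomWithQualityWeights also called 0. In the table as a whole edgeR called 0.0134% of genes in the average and 0% in each organ. DESeq2 called 0.825% in the average, 0.237% in siLP, 0.0811% in cLP and 0.115% in spleen, and voomWithQualityWeights 0.0739%, 0.0134%, 0.0202% and 0.0336%. At an unadjusted p under 0.05, 3 of the 33 genes stood out in the average (5.77% of all genes did), 1 in spleen (1.95%), 0 in siLP (4.31%) and 0 in cLP (2.44%). The median log2 difference of the 33 genes, CAR-deficient minus wild type, was 0.01 in the average, -0.16 in siLP, -0.11 in cLP and -0.01 in spleen.

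The 3 genes with the smallest p in the average were Slc2a3, Pgk1 and Egln3, which are given as not past the threshold. Since they were named for a small p, libraries that do not overlap go with that choice and are no separate support. The share of all genes with such a separation was not counted. Slc2a3 differed by 0.55 ± 0.21 (edgeR adjusted p = 0.726), mostly in spleen, where the 3 CAR-deficient libraries, at 59.0, 26.7 and 44.9 CPM, lay above the 3 wild type ones, at 16.2, 24.4 and 17.7 CPM (1.17 ± 0.37, adjusted p = 1.00). Its genotype difference in siLP minus that in spleen was -1.01 ± 0.52 (edgeR adjusted p = 1.00). Egln3 had 1.94, 0.253 and 0.316 CPM in siLP CAR-deficient libraries, against 7.62, 3.57 and 7.64 in siLP wild type ones. In cLP it had 3.76, 3.89 and 6.13 CPM in CAR-deficient and 11.0, 10.5 and 10.3 in wild type libraries. The gut libraries of the genotypes did not overlap within an organ, while in spleen 0, 3.99 and 1.27 CPM in CAR-deficient stood beside 0.0461, 3.84 and 6.95 in wild type libraries. The average was -1.72 ± 0.79 (edgeR adjusted p = 0.852).

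Pgk1 (ENSMUSG00000062070), the kinase that makes the first ATP of glycolysis, differed by -0.32 ± 0.14 (edgeR adjusted p = 0.805). It had 133, 206 and 204 CPM in siLP CAR-deficient and 241, 299 and 222 in siLP wild type libraries, which did not overlap. In cLP it had 266, 236 and 230 CPM in CAR-deficient and 276, 285 and 318 in wild type cells, also without overlap. These separations are no support apart from the p for which Pgk1 was named. In spleen, 204, 324 and 203 CPM in CAR-deficient and 272, 314 and 261 in wild type libraries overlapped.

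The 6 lower glycolysis genes all had fitted differences below 0. In the average, 6 of 6 lay below 0 with a median of -0.32, and the count was 6 of 6 also in siLP, cLP and spleen, where the medians were -0.32, -0.45 and -0.19. In the average over organs, 49.1% of all genes tested lay above 0. Other roles went differently. Of the 7 other HIF targets, 7 lay above 0 in the average (median 0.15) and 7 in spleen (0.44), but 3 in siLP and 4 in cLP. Of the 8 upper glycolysis genes, 4 lay above and 4 below 0 in the average (median 0.0065). None of the 6 lower glycolysis genes passed the test, and the direction is a description of genes that share their libraries. Ldha, the next step, had 514, 433 and 762 CPM in siLP CAR-deficient and 560, 1012 and 772 in siLP wild type libraries. In cLP it had 391, 479 and 604 CPM in CAR-deficient and 568, 983 and 882 in wild type libraries, and in spleen 316, 876 and 369 in CAR-deficient and 423, 839 and 525 in wild type ones. Its largest difference was in cLP (-0.72 ± 0.40, edgeR adjusted p = 1.00), where 1 CAR-deficient library, c, lay within the wild type range. The direction of the lower glycolysis genes and Ldha, 7 genes together, depended on single libraries. In spleen, 7 of 7 lay below 0 with all libraries (median -0.20), but 2 of 7 without CAR-deficient a (median 0.046) or without wild type b (0.13), and 5 of 7 without CAR-deficient c (-0.10), while the median was -0.80 without CAR-deficient b. In siLP, 5 of 7 lay below 0 without wild type b and 6 of 7 without wild type c or CAR-deficient a or b, with medians from -0.55 to -0.17 over the 18 fits without 1 library. In cLP, 6 of 7 lay below 0 without wild type c or CAR-deficient a, and the median ran from -0.90 without CAR-deficient c to -0.35 without CAR-deficient a. Cell cycle genes also had 14 of 14 differences below 0 in the average and 0 called, and their part in the difference was not tested.

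**Figure D4:**
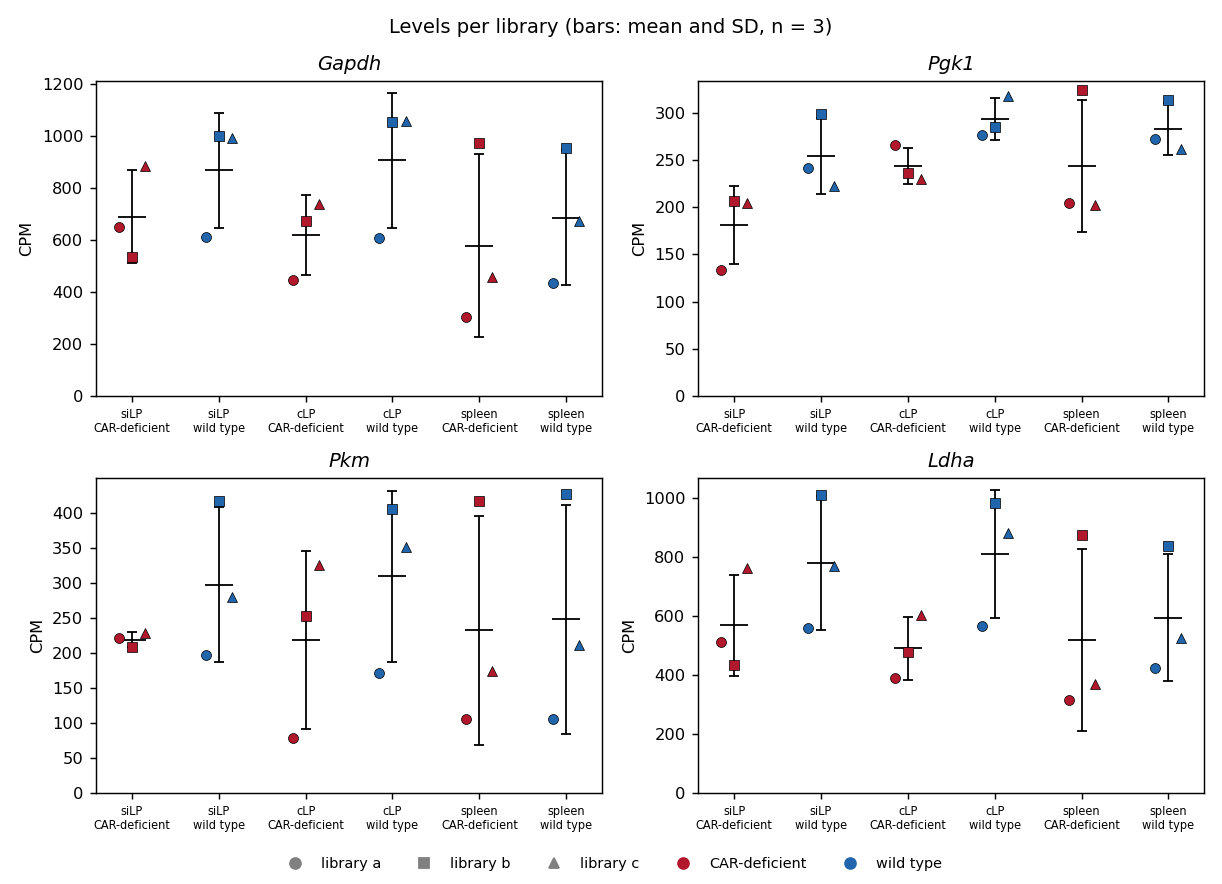
Levels of Gapdh, Pgk1, Pkm and Ldha in CPM per library, in 6 groups by organ and genotype, with the mean and SD of n = 3 as bars, colour for genotype and marker shape for library a, b or c. Group means are lower in CAR-deficient than in wild type cells in each organ, as for Ldha in cLP at 492 and 811 CPM, while the libraries overlap in most pairs and library a is often the lowest.

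The remaining genes named by the smallest p within an organ each had an edgeR adjusted p of 1.00. They were Slc16a3 in siLP, Pfkfb3 and Pgam1 in cLP (1.05 ± 0.67 and -0.39 ± 0.28), and Pdk1 and Slc2a1 in spleen (-1.23 ± 0.86 and 0.57 ± 0.41). Slc16a3 had 1.99, 0.0421 and 3.23 CPM in siLP CAR-deficient and 0, 0.758 and 0.143 in siLP wild type libraries. CAR-deficient b and wild type a held fewer than 3 counts, so no fold is given. Pdk1 in spleen had 1.00, 10.4 and 10.8 CPM in CAR-deficient and 24.8, 10.3 and 16.9 in wild type libraries. Of the genes around the pathway, 0 were called between the genotypes in the average in any of the lists counted above, by edgeR.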

How the data were processed

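Messenger RNA from some 500 CD4+ effector T cells a library was made into cDNA with SMART-Seq v4 and into libraries with NEBNext Ultra II, which keep no strand, per the labels' protocols. The deposited table gives estimated counts per gene, not normalized by the authors. Salmon, DESeq2 and the build mm10 are named without versions or roles in the submitters' processing notes, and the annotation is not given in the sources used here. Of its columns, 18 hold the estimated counts used, matched by name to organ and CD45.1 status (columns without CD45.1 were taken as CAR-deficient by elimination), and 37 others were not used.

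Counts were rounded and tested in edgeR 4.0.16 (R 4.3.3) by the quasi-likelihood test, with filterByExpr, TMM and 1 mean per group over all 18 libraries. A call is a two-sided Benjamini-Hochberg adjusted p under 0.05 over the 14876 genes. CPM are on TMM-scaled library sizes, and CPM per kilobase use the summed exon length in GENCODE vM21, which matched 34083 of 34162 gene IDs. The fit was tested on simulated counts. Alternatives used DESeq2 1.42.0, limma 3.58.1, other scaling or filters, and fewer libraries.

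All 33 genes could be named. Called ones are given in every library, and where none was called, the 3 with the smallest p are named as not called. Of other lists, up to 4 called genes with the largest change are named. The genes and lists were chosen with earlier results of these data known. Intervals of counting error are not given, since the libraries carry no molecular identifiers.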

Additional observations from a re-analysis of the deposited data

How the results depend on the processing

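Counts of the 33 genes called were the same with the RLE scaling, without the filter on low counts, and with near-identical copies added, and no alternative called any of the 33 between the genotypes. With voomWithQualityWeights 5 were called in cLP over spleen (main 3; 12.3% of the whole table called) and 2 in wild type cells there (main 0; 5.3%). DESeq2 called 1 in siLP against cLP (main 0), 1 in siLP over spleen of CAR-deficient cells (main 0) and 2 in cLP over spleen of wild type cells (main 0), with 1.45%, 1.48% and 1.92% of the whole table called. Without the 6 a libraries 0 were called in siLP over spleen (main 1), 1 in cLP over spleen (main 3) and 1 in siLP against cLP (main 0), with 0.692%, 4.89% and 1.06% of the whole table called. The cause of these shifts was not tested. Over the 18 fits without 1 library, which tested 15631 to 15828 genes, the counts ran from 0 to 1 in siLP over spleen, 1 to 3 in cLP over spleen and 0 to 1 in cLP over spleen of CAR-deficient cells, and were 0 in the other comparisons. Ldha's genotype difference in cLP minus that in spleen ran from -0.86 to 0.072 over these fits, turning above 0 without CAR-deficient spleen b (0.072).

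The column endings were also used as a replicate block, though the labels do not say what they mark. Where 2 libraries shared an ending, their deviations from the group means had a correlation over 0.1 in 40 of 45 cases, against 8 of 90 where they did not. With this block 2 genes were called in siLP over spleen (main 1) and 2 in cLP over spleen of CAR-deficient cells (main 1). The whole table then had 209 higher and 34 lower calls in siLP over spleen (edgeR without the block 120 and 6) and 152 and 19 in cLP over spleen of CAR-deficient cells (69 and 3). Hif1a was called with the block in both gut sites over spleen. Mxi1 was not called with the block (1.65, adjusted p = 0.0579).

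Over the whole table, DESeq2 called 815 higher and 239 lower genes in cLP over spleen and voomWithQualityWeights 1298 and 530, against 404 and 52 in edgeR. In siLP over spleen DESeq2 called 322 higher and 74 lower, voomWithQualityWeights 212 and 39, and edgeR 120 and 6. Without 1 library the higher calls in cLP over spleen ran from 183 to 443. The planned adjustment for transcript length has no value here, because 1 measure, the counts, was kept for the results. An exploratory fit with the length columns ended the Hk2 calls in siLP over spleen and in cLP over spleen of CAR-deficient cells, and the siLP rise of Hk2 is to be read with that limit. What that fit gave for the other calls is not stated here. Levels under 3 counts, as for Vegfa in 14 libraries, give no fold.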

Other observations

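Of the 33 genes, 11 (33.3%) were lowest in library a in at least 5 of the 6 groups, against 2384 of the 14876 genes tested, and 3 (9.09%) were highest there, against 11.9% of the genes tested. In all 6 groups, 2 of the 33 (6.06%), Pfkm and Eno1, were lowest in library a, against 4.71% of the genes tested. The labels do not explain the ending, and its part in the spread of these genes was not tested.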
